A study of Homo sapiens with 26 samples.

Results

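RNA polymerase II is the enzyme that transcribes messenger RNA, and the 10 genes described here encode subunits of its core. They were picked by symbol (POLR2A, POLR2B, POLR2C, POLR2D, POLR2E, POLR2F, POLR2G, POLR2H, POLR2I and POLR2L), and each symbol had 1 row on a standard chromosome among the 58735 genes of the deposited table. The rule reads names and no measured value, but the set was proposed with earlier results of these data known. All 10 members passed the filter on low values, an FPKM (fragments per kilobase of gene length, scaled to the size of the library) of at least 1 in 3 or more libraries, which 14835 genes passed.

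The 2 largest subunits, RPB1 (POLR2A) and RPB2 (POLR2B), form the catalytic cleft, and the long C-terminal tail of RPB1 is phosphorylated as the enzyme starts, pauses and elongates. RPB3 (POLR2C) belongs to the platform on which the enzyme is assembled, RPB4 (POLR2D) and RPB7 (POLR2G) form a stalk near the exit of the transcript, and RPB9 (POLR2I) contributes to accurate transcription. RPB5, RPB6, RPB8 and RPB10 (POLR2E, POLR2F, POLR2H and POLR2L) also serve RNA polymerases I and III. Larger cells are known to make more RNA per cell, and in budding yeast RNA polymerase II has been studied as a limiting factor in that scaling.

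The 26 libraries of polyadenylated RNA came from 3 established human lines, the colorectal cancer lines HCT116 and DLD1 and the triple negative breast cancer line CAL51. Tetraploid (4N) cells had been made by blocking cytokinesis for 20 hr, with 75 µM blebbistatin in HCT116 and CAL51 and with 1.5 µg/mL DCB in DLD1, so drug and line cannot be told apart for DLD1. After 48 hr of recovery single cells were expanded into clones, and the study classed 4N clones as large or small. The libraries held 10 large 4N clones (3 of HCT116, 4 of DLD1, 3 of CAL51), 7 small 4N clones (3 of HCT116, 3 of DLD1, 1 of CAL51), 6 diploid (2N) clones (2 of each line) and 3 parental populations (1 of each line). Each clone descends from 1 cell, the CAL51 small class rests on 1 clone, and the labels do not say whether the 2N clones had been exposed to a drug.

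Library depth ranged from 23.5 M to 44.5 M assigned reads, with a median of 32.5 M, and no member fell below 305 reads (POLR2I) in any library. Besides counting error, these counts carry the variation among clones. In a gene of 1 kb, 1 read was worth 0.0246 to 0.0400 FPKM. Mitochondrial genes took 2.42 to 10.1% of reads. The epithelial genes EPCAM, KRT8 and KRT18 were at 32.5 FPKM or more in all libraries, while PTPRC and PECAM1, markers of leukocytes and endothelium, stayed at or below 0.480 FPKM and COL1A1, a marker of fibroblasts, at or below 8.35 FPKM. The epithelial gene CDH1 was 1.92 to 26.2 FPKM in HCT116 and 70.0 to 126 FPKM in DLD1. Of the colon markers, CDX1 was at or near 0 in both colorectal lines, and LGALS4 was at or below 0.986 FPKM in both. VIL1 was near 0 in HCT116 and 0.202 to 8.99 FPKM in DLD1. KRT20 was 0.191 to 2.58 FPKM in HCT116 and 0 to 41.8 FPKM in DLD1. CDX2 was 4.28 to 8.02 FPKM in HCT116 and 38.5 to 81.8 FPKM in DLD1. In CAL51 the hormone receptor genes ESR1 and PGR were near 0, while the growth factor receptor gene ERBB2 was 14.9 to 22.8 FPKM, against 10.4 to 19.0 FPKM in the colorectal lines. The other breast and epithelial markers in CAL51 were KRT19 at 2.28 to 93.7 FPKM, GATA3 at 0.350 to 1.13 FPKM and CDH1 at 0.193 to 11.1 FPKM. FPKM is a share of each library, so a change in total RNA per cell is not visible, and a smaller share of cells with a transcript cannot be told apart from less of it per cell.

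The members spanned a wide range of levels. By the median FPKM over the 26 libraries, POLR2L was highest at 139, followed by POLR2E at 62.9, POLR2A at 48.9, POLR2G at 27.2, POLR2H at 22.6, POLR2C at 22.2, POLR2B at 19.0, POLR2D at 13.9, POLR2I at 10.7 and POLR2F at 6.05. POLR2H and POLR2C, next to each other in that order, overlapped across their ranges of 12.4 to 32.3 and 19.3 to 29.2 FPKM, as did POLR2D at 10.4 to 19.8 and POLR2I at 7.36 to 24.6 FPKM. These levels are per kilobase of the gene length given in the table, which was 1142 bases for POLR2L, 7042 bases for POLR2F and 8355 bases for POLR2A. Subunits of the same enzyme thus differed widely in mRNA level per length.

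**Figure D1:**
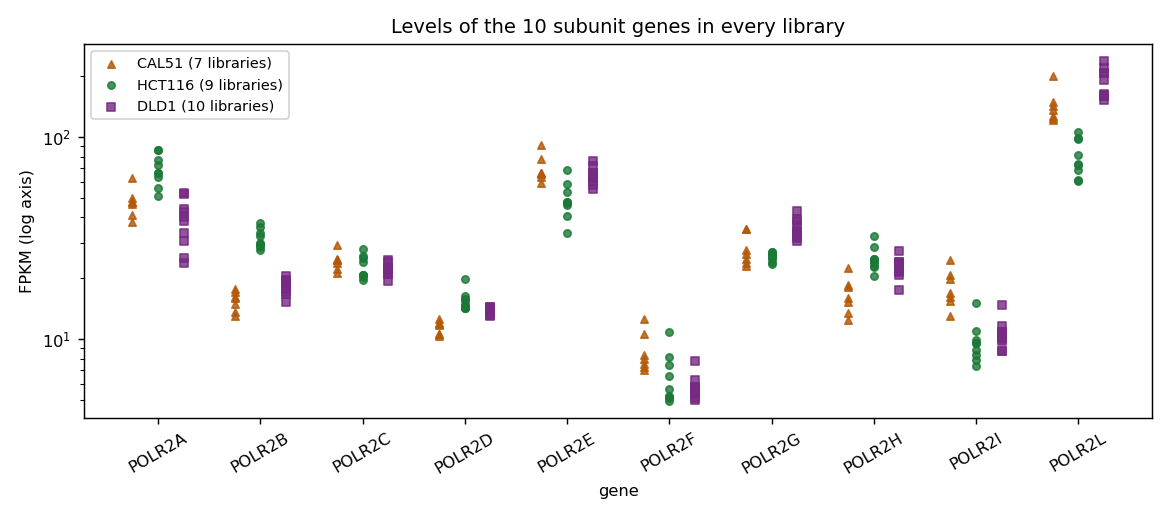
FPKM on a log axis of each of the 10 subunit genes in every library, with CAL51 left, HCT116 in the middle and DLD1 right for each gene; each point is 1 library. POLR2L lies highest, between 60.3 and 238 FPKM, and POLR2F lowest, between 4.94 and 12.6 FPKM.

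The 10 genes lie on 8 chromosomes (GRCh38 coordinates as the table gives them). POLR2A is on the plus strand of chromosome 17 from 7484366 to 7514616, and POLR2B on the plus strand of chromosome 4 from 56977722 to 57031168. POLR2C occupies 57462387 to 57472010 on chromosome 16, plus strand, and POLR2D occupies 127843551 to 127858157 on chromosome 2, minus strand. POLR2E and POLR2I are both on the minus strand of chromosome 19, from 1086579 to 1095380 and from 36113710 to 36115346. POLR2F lies on chromosome 22 from 37952607 to 38041915, plus strand, and POLR2H on chromosome 3 from 184361718 to 184368596, plus strand. Chromosome 11 holds POLR2G, from 62761544 to 62766710 on the plus strand, and POLR2L, from 837356 to 842545 on the minus strand.

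Several members share ground with a gene on the opposite strand, and whether the counting used strand is not given in the sources used here. POLR2B overlaps IGFBP7, which encodes a secreted growth factor binding protein, and NOA1; POLR2I overlaps the tubulin cofactor gene TBCB, POLR2L overlaps the tetraspanin gene CD151, POLR2C overlaps DOK4, POLR2E overlaps ARHGAP45, and POLR2F overlaps C22orf23 and SOX10. IGFBP7 stood at 80.0 to 501 FPKM in CAL51 but at or below 0.141 FPKM in every HCT116 and DLD1 library. In CAL51 large clones 1, 2 and 3, IGFBP7 was 501, 150 and 215 FPKM and POLR2B 13.7, 17.1 and 17.7 FPKM. In the CAL51 small clone they were 142 and 13.0 FPKM. The share of POLR2B reads that could come from IGFBP7 in CAL51 was not tested.

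Promoters were read from RefSeq (GRCh38.p14) for 8 of the 10 members as the 250 bases before the listed start, and POLR2G and POLR2I had no entry. The stretches outside annotated exons are shown for POLR2A, the member with the largest difference between clone sizes, and for POLR2E, which varied most closely with another member, with GC boxes (GGGCGG) in capitals. The POLR2A stretch is chr17:7484264-7484365, plus strand, and the POLR2E stretch is chr19:1095381-1095625, minus strand.
POLR2A: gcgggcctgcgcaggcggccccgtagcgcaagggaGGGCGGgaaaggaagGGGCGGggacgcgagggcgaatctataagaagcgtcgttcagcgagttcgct
POLR2E: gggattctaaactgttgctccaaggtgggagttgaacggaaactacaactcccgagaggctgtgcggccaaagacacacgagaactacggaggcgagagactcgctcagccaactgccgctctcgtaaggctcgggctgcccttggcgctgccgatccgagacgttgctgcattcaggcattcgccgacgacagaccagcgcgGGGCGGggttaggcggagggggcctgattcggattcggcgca

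With both strands searched, the GC box GGGCGG occurred in 6 of the 8 windows (POLR2A, POLR2B, POLR2D, POLR2E, POLR2H and POLR2L), against 42.6% of 35116 promoter windows of the same length. The TATA box TATAAA, the CCAAT box CCAAT and the E box CACGTG were in 0 of 8, against 10.7%, 32.0% and 6.34% of all windows. The ETS motif CCGGAAG was in 2 (POLR2C and POLR2F), against 8.52%. GC content was 53.6 to 82.0% in the 8 windows, with a median of 58.0% over all windows. Exon sequence of ZBTB4, a zinc finger gene read in the other direction, covers 148 bases of the POLR2A window, and that of CLCN2 covers 192 bases of the POLR2H window. The windows of POLR2B, POLR2C and POLR2F lie wholly (250 bases) in annotated exons. Those exons include ones of the member itself and, for POLR2B, of NOA1. The ETS matches of POLR2C and POLR2F thus lie in annotated exons.

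The main question of the series was how clones of equal ploidy but different size differ. Between large and small 4N clones, averaged over the 3 lines, POLR2A had the most negative log2 difference of the 10 members, at -0.44, and POLR2B the most positive, at 0.20, neither past the threshold. POLR2A was the only member with a lower mean in large clones in each line (10.8% of all tested genes had this), and POLR2B the only member with a higher mean in each line (10.7% of all tested genes). None of the 10 members passed an adjusted p of 0.05 in limma over all tested genes, against 59 genes or 0.398%. At an unadjusted p below 0.05 there were 2 members, POLR2A and POLR2B, against 9.54% of all genes, and limma voom on recovered reads also passed 0 members.

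POLR2A in HCT116 was 55.7, 72.9 and 51.3 FPKM in the large clones, against 86.2, 86.1 and 77.0 FPKM in the small clones. The highest large clone lay below the lowest small clone, which held for 7.5% of all tested genes in this direction. The 2N clones, at 63.6 and 66.3 FPKM, and the parental library, at 66.0 FPKM, lay among the large clones. The log2 difference of large minus small clones was -0.48 ± 0.16 (SE), with an adjusted p of 0.174.

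In DLD1, POLR2A was 42.5, 44.3, 30.6 and 33.6 FPKM in large clones, against 40.0, 53.0 and 52.1 FPKM in small clones. The classes overlapped through small clone 1, which lay below 2 of the large clones. Both 2N clones, at 23.7 and 25.3 FPKM, were below every 4N clone, as for 3.6% of all tested genes, while the parental library, at 38.6 FPKM, was within the range of the large clones. The log2 difference between large and small clones was -0.35 ± 0.15 (SE), adjusted p = 0.659.

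The CAL51 large clones had 38.0, 49.8 and 46.6 FPKM of POLR2A, against 62.7 FPKM in the only small clone. The small clone was above all large clones, as for 23.2% of tested genes in this line. The 2N clones had 47.9 and 41.3 FPKM and the parental population 47.6 FPKM. The log2 difference was -0.48 ± 0.23 (SE) with an adjusted p of 0.403, and that SE borrows the spread of the other classes for the single small clone.

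Averaged over lines, POLR2A differed by -0.44 ± 0.11 (SE) on the log2 scale, large minus small, and ranked 109 of 14835 genes by p, with an adjusted p of 0.0931 (unadjusted 0.000689). Without HCT116 large clone 2, the library at 72.9 FPKM, the difference was -0.49 and the adjusted p 0.0458, and within HCT116 it was -0.62 with an adjusted p of 0.0349. That clone had the highest POLR2A of the HCT116 large clones, so leaving it out widens the difference. Leaving it out was the only 1 of 34 alternatives over lines, and of 32 within HCT116, that passed the threshold. Over the alternatives the adjusted p in limma reached 0.432 over lines and 0.498 within HCT116. The 498 chromosome 17 genes at a mean of at least 5 FPKM had a median difference of -0.0028, counted from the median of all genes at that level. The 1130 genes within 1.2-fold of the length of POLR2A had a median of -0.02, not so adjusted, with 5th and 95th percentiles of -0.30 and 0.26. ZBTB4, whose exon lies in the POLR2A promoter window, differed by -0.12 ± 0.12 (SE), adjusted p = 0.807. By line ZBTB4 differed by -0.41 ± 0.18 in HCT116, -0.03 ± 0.17 in DLD1 and 0.07 ± 0.26 in CAL51 (SE). Whether it varied with POLR2A was not tested.

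POLR2B, the other catalytic subunit, was 35.9, 33.6 and 37.5 FPKM in HCT116 large clones, against 29.4, 27.5 and 32.5 FPKM in HCT116 small clones. Here all large clones lay above all small ones, as for 6.85% of tested genes. The 2N clones had 29.8 and 28.6 FPKM and the parental library 29.2 FPKM. In DLD1 the large clones had 19.4, 19.5, 19.7 and 15.2 FPKM and the small clones 17.1, 17.8 and 17.9 FPKM. Large clone 4 alone lay below the DLD1 small clones, and the 2N clones, at 20.4 and 16.8 FPKM, straddled them.

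POLR2B in CAL51 was 13.7, 17.1 and 17.7 FPKM in large clones, against 13.0 FPKM in the small clone, with 15.99 and 14.9 FPKM in 2N clones and 16.2 FPKM in the parental library. The small clone was below all large clones, as for 23.9% of tested genes. Over the 3 lines the log2 difference was 0.20 ± 0.08 (SE), adjusted p = 0.421 (unadjusted 0.0236). In CAL51 the 240 chromosome 4 genes had a median of 0.14, counted from the median of all genes at a mean of at least 5 FPKM. POLR2B itself, not so adjusted, differed there by 0.29 ± 0.17 (SE), and the part of the chromosome in that value was not tested.

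**Figure D2:**
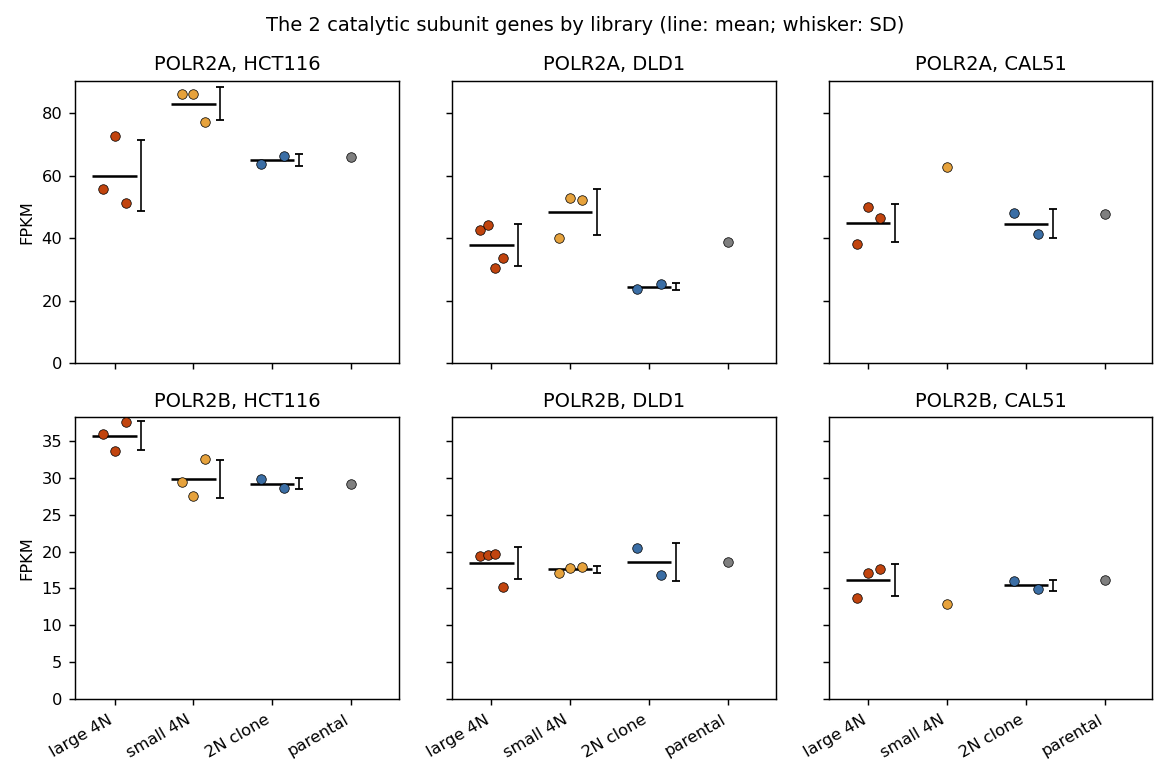
FPKM of POLR2A (top) and POLR2B (bottom) in large 4N, small 4N, 2N and parental libraries of each line; points are libraries, horizontal lines group means and whiskers 1 SD, drawn where a group has more than 1 library. POLR2A averages 60.0 FPKM in HCT116 large clones and 83.1 FPKM in small clones, and POLR2B averages 35.7 FPKM in large and 29.8 FPKM in small clones.

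Because the opposite leanings meet in the enzyme's catalytic pair, the ratio of POLR2A to POLR2B FPKM was taken within each library. It averaged 1.70 ± 0.42 in HCT116 large clones and 2.81 ± 0.40 in HCT116 small clones (SD, n = 3 each), with 2.14 and 2.31 in the 2N clones and 2.26 in the parental library. In DLD1 it averaged 2.06 ± 0.34 in large clones (SD, n = 4) and 2.74 ± 0.35 in small clones (SD, n = 3), with 1.16 and 1.51 in the 2N clones and 2.08 in the parental library. CAL51 large clones averaged 2.78 ± 0.14 (SD, n = 3), against 4.84 in the small clone, 2.999 and 2.77 in the 2N clones and 2.95 in the parental library.

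The ratio was lower in every large clone than in every small clone of the same line. The gap was narrowest in DLD1, where the highest large clone had 2.27 and the lowest small clone 2.34. In HCT116 and CAL51 every large clone already lay below every small clone in POLR2A and above it in POLR2B. The ratio therefore had to separate the classes in those lines, and only in DLD1 could it have overlapped. The ratio was built from the most negative and the most positive member after their values were seen, and it is given with no test. Part of the separation thus lies in the choice of genes. Of the ratios of POLR2A to each of the 14834 other tested genes, 2.88% were lower in every large clone in this way, as were 0.58% of the ratios of each other tested gene to POLR2B. Because this pair was picked for its opposite directions, these shares do not say how rare its separation is.

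**Figure D3:**
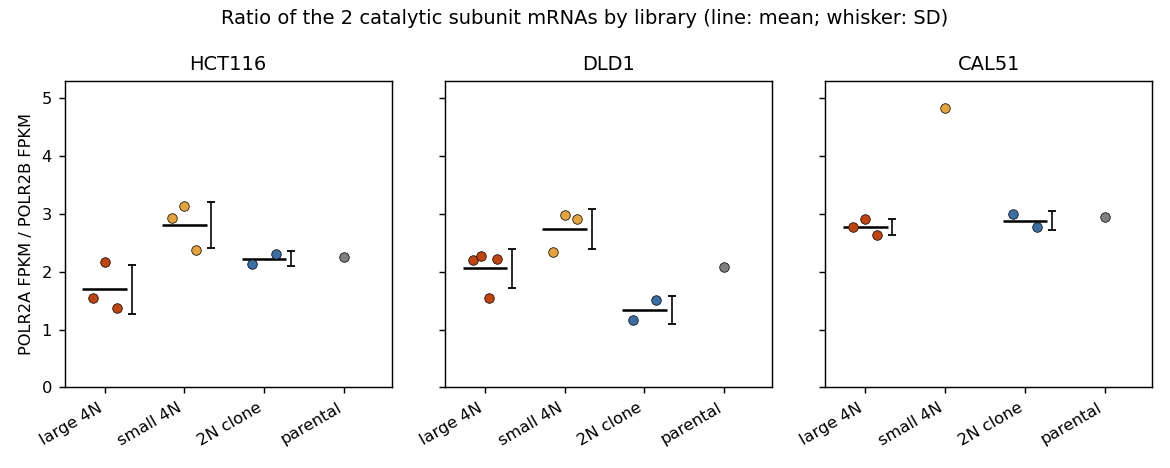
POLR2A FPKM divided by POLR2B FPKM in each library, by class and line; points are libraries, lines means and whiskers 1 SD. Large 4N clones lie below small 4N clones in all 3 lines, at 1.37 to 2.17 against 2.37 to 3.13 in HCT116.

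The other 8 members lay closer to 0. Averaged over lines, their log2 differences of large minus small clones ran from -0.03 (POLR2C) to 0.09 (POLR2G), and the median of all 10 members was 0.03, beside -0.00096 over all tested genes. Within HCT116, 3 of the shared subunits were higher on average in large clones. POLR2E, the shared RPB5, was 68.7, 47.8 and 58.4 FPKM in large clones, against 45.9, 33.3 and 53.3 FPKM in small clones.

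POLR2F, which encodes the shared RPB6, was 10.9, 6.54 and 8.12 FPKM in HCT116 large clones, against 5.69, 4.94 and 7.42 FPKM in small clones. POLR2H, for the shared RPB8, was 28.4, 24.9 and 32.3 FPKM in large clones, against 20.5, 25.02 and 22.8 FPKM in small clones. In each of these genes 1 small clone lay above the lowest large clone, so the classes overlapped. POLR2I, for RPB9, was 15.1, 11.02 and 9.58 FPKM in large clones, against 7.85, 9.58 and 9.91 FPKM in small clones, also with overlap.

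On the log2 scale these HCT116 differences were 0.40 ± 0.17 for POLR2E, 0.43 ± 0.19 for POLR2F, 0.31 ± 0.18 for POLR2H and 0.33 ± 0.19 (SE) for POLR2I. The same 4 members differed by -0.12, -0.04, -0.10 and -0.13 in DLD1 and by -0.08, -0.21, -0.21 and -0.17 in CAL51. Their differences were thus positive in HCT116 and negative in the other lines, but the difference between lines, tested directly, passed the threshold for 0 of 10 members in each pair of lines. All tested genes passed at 0.155% for HCT116 minus DLD1, 1.54% for CAL51 minus HCT116 and 0.667% for CAL51 minus DLD1. At an unadjusted p below 0.05 there was 1 member, POLR2E between HCT116 and DLD1, and limma voom passed 0 members.

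The stalk subunits and the remaining members had no direction common to the 3 lines. POLR2D, for RPB4, differed by 0.16 ± 0.11 in HCT116, 0.01 ± 0.11 in DLD1 and -0.05 ± 0.16 in CAL51 (SE). POLR2G, for its partner RPB7, was 35.0, 35.1 and 26.4 FPKM in CAL51 large clones, against 24.9 FPKM in the small clone, with no overlap, as for 23.9% of all genes in this line. The 447 genes of chromosome 11 had a median of 0.10 in that comparison, counted from the median of all genes at a mean of at least 5 FPKM. Without that adjustment, POLR2G differed there by 0.34 ± 0.20 and POLR2L, on the same chromosome, by 0.16 ± 0.32 (SE).

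POLR2C, for the assembly subunit RPB3, differed by 0.03 ± 0.13 in HCT116, -0.14 ± 0.12 in DLD1 and 0.02 ± 0.19 in CAL51 (SE). POLR2L, for the shared RPB10, ranged from 60.3 to 99.2 FPKM in HCT116 large clones and from 60.9 to 105 FPKM in small clones, so that the classes covered the same range. In DLD1 it was 162 to 207 FPKM in large clones and 152 to 238 FPKM in small clones. POLR2H in DLD1 was 17.5 to 23.9 FPKM in large clones and 20.7 to 24.1 FPKM in small clones. The 395 chromosome 3 genes there had a median difference of -0.02, counted from the median of all genes at a mean of at least 5 FPKM.

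**Figure D4:**
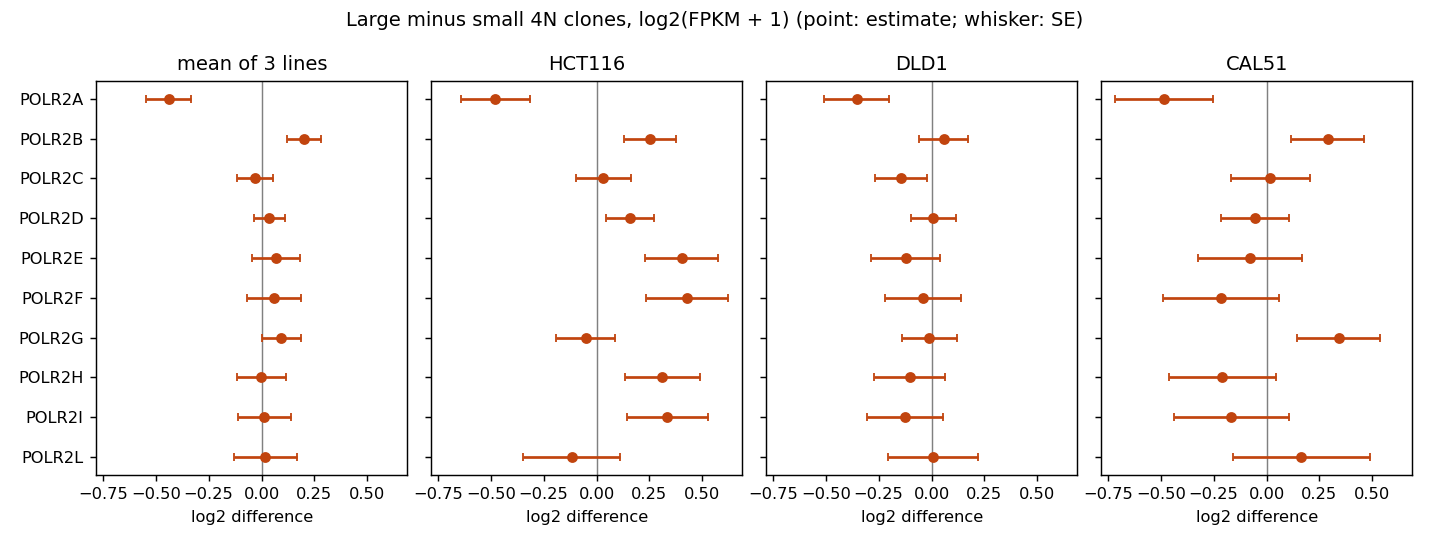
Log2 difference of large minus small 4N clones on the log2(FPKM + 1) scale for each member, as the mean of 3 lines and in each line; points are estimates and whiskers 1 SE. POLR2A lies left of 0 in every panel, between -0.35 and -0.48 in the single lines, and POLR2B right of 0, between 0.06 and 0.29.

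Within single lines, 0 of 10 members passed the limma threshold between large and small clones, against 0.445% of all genes in HCT116, 0.472% in DLD1 and 1.52% in CAL51. At an unadjusted p below 0.05 there were 3 members in HCT116 (POLR2A, POLR2E and POLR2F; 15.4% of all genes), 1 in DLD1 (POLR2A; 6.65%) and 0 in CAL51 (12.4%). Limma voom also passed 0 members in each line.

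Between 4N and 2N clones, which differ in ploidy, POLR2A had the highest difference of the members. The mean of large and small 4N clones over that of 2N clones, averaged over lines, gave POLR2A a log2 difference of 0.37 ± 0.10 (SE), adjusted p = 0.658 (unadjusted 0.00126). Over 34 alternatives that difference ran from 0.18 to 0.50, with limma adjusted p from 0.159 to 0.9999 and 0 past the threshold. Of the 10 members, 9 had a positive difference and 1 a negative one, where 51.6% of all tested genes were negative, and the members' median was 0.09, beside -0.0045 over all tested genes. In limma 0 of 10 members passed the threshold, against 1 gene or 0.00674%, 1 member had an unadjusted p below 0.05 (5.00% of all genes), and voom passed 0.

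The POLR2A values against 2N clones follow line by line. In DLD1 small clones it rose relative to the 2N clones, by 0.94 ± 0.18 (SE) on the log2 scale with an adjusted p of 0.0319, and it was the only member among the 50 genes past the threshold (0.337% of those tested). It averaged 48.3 ± 7.25 FPKM in the small clones (SD, n = 3), against 24.5 ± 1.09 FPKM in the 2N clones (SD, n = 2). All 3 small clones lay above both 2N clones, as for 13.8% of all tested genes. That call depended on a few libraries, and the 4 DLD1 clones whose removal ended it were small clone 2 (adjusted p = 0.112), small clone 3 (0.139), 2N clone 1 (0.161) and 2N clone 2 (0.224). Counting the parental library, at 38.6 FPKM, with the 2N clones gave 0.73 and an adjusted p of 0.0916.

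DLD1 large clones, compared with the same 2N clones, had a POLR2A difference of 0.59 ± 0.17 (SE) with an adjusted p of 1, in a comparison with 0 genes past the threshold (0 with voom) and 2.99% of genes at an unadjusted p below 0.05. The corresponding values were -0.13 ± 0.18 for large and 0.35 ± 0.18 for small clones of HCT116, and 0.0015 ± 0.18 for large and 0.49 ± 0.24 for small clones of CAL51 (SE). Small clones were thus on the positive side in all 3 lines, and large clones on both sides. Large and small clones shared their 2N clones, so these values are set side by side only.

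CAL51 differed from the mean of both colorectal lines in 2 members. Only CAL51 came from breast, so tissue and line cannot be told apart. Among 2N clones, POLR2B was lower in CAL51, at 15.99 and 14.9 FPKM, than in HCT116 at 29.8 and 28.6 FPKM and in DLD1 at 20.4 and 16.8 FPKM, and POLR2I was higher in CAL51, at 19.9 and 17.0 FPKM, than in HCT116 at 7.36 and 8.38 FPKM and DLD1 at 14.8 and 8.70 FPKM. On the log2 scale, CAL51 minus the mean of both colorectal lines was -0.56 ± 0.13 for POLR2B (SE, adjusted p = 0.00185) and 0.89 ± 0.20 for POLR2I (SE, adjusted p = 0.00176). These were the only members past the threshold, 2 of 10, in a comparison where 45.2% of all tested genes passed.

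POLR2D and POLR2H fell just outside the threshold there, at -0.29 ± 0.12 (SE, adjusted p = 0.0596) and -0.45 ± 0.19 (SE, adjusted p = 0.0599). Without DLD1 2N clone 2 the count was 4, with POLR2G at -0.38 and POLR2H at -0.54 added. POLR2A, the member most different between sizes, did not pass between lines, at 0.15 ± 0.17 (SE, adjusted p = 0.507).

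The members also differed in how far they varied among clones of 1 line. The SD of log2(FPKM + 1) within lines was 0.31 for POLR2A, larger than in 74.7% of the 822 genes within 1.5-fold of its level. It was 0.10 for POLR2D, at the 0.682 percentile of 2640 like-level genes, and 0.14 for both POLR2B and POLR2C, at percentiles of 7.38 and 6.97. POLR2D in DLD1 is the plainest case, with all 10 libraries between 13.0 and 14.5 FPKM, while POLR2A in the same libraries ran from 23.7 to 53.0 FPKM.

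Over all 26 libraries, with each line centred on its mean, 35 of the 45 pairs of members were positively correlated (Pearson's r), with a median of 0.28. The closest pairs were POLR2E with POLR2F (0.88), POLR2F with POLR2I (0.82) and POLR2E with POLR2I (0.72). The 4 most negative pairs all held POLR2A, with POLR2F (-0.33), POLR2H (-0.32), POLR2E (-0.30) and POLR2B (-0.27). These are descriptions over libraries that share line, class and preparation, with no test.

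In HCT116 large clone 1, POLR2E, POLR2F and POLR2I lay 0.50, 0.69 and 0.61 above their line means on the log2 scale, while POLR2A lay at -0.29. In CAL51 large clone 1, POLR2F and POLR2I lay 0.50 and 0.44 above and POLR2A at -0.30, and in DLD1 2N clone 1 POLR2F and POLR2I lay 0.38 and 0.46 above and POLR2A at -0.63. These 3 libraries were chosen after their values were seen, and the opposition was not general. POLR2A was opposite in sign to both POLR2F and POLR2I in 10 of the 26 libraries, and the 3 genes had the same sign in 12. In CAL51 small clone 1 they lay at 0.40 (POLR2A), 0.28 (POLR2F) and 0.21 (POLR2I), and in DLD1 2N clone 2 at -0.54, -0.17 and -0.25 in the same order. The heatmap of centred values shows both kinds of column.

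**Figure D5:**
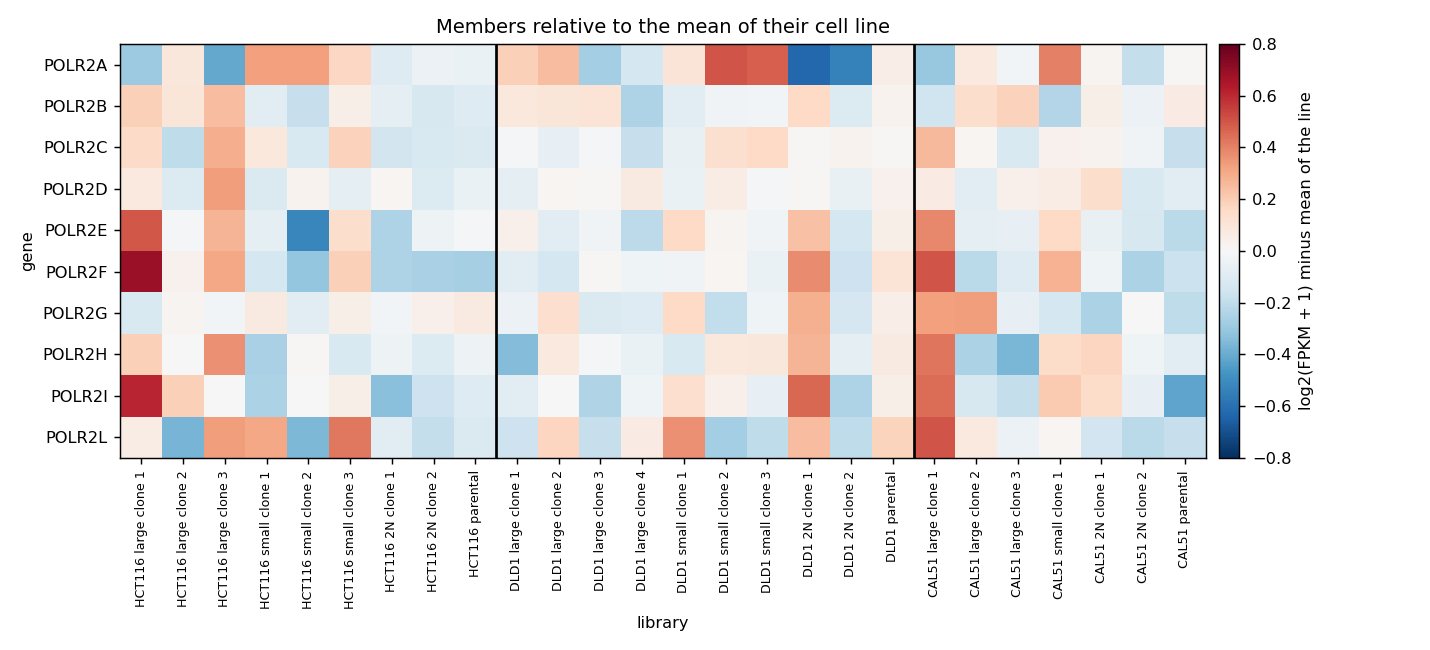
Log2(FPKM + 1) of each member in each of the 26 libraries minus the mean of its line; red is above and blue below the line mean, and vertical lines part the cell lines. POLR2A is lowest in the 2 DLD1 2N clones and highest in DLD1 small clones 2 and 3.

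Out of 4636 genes averaging at least 10 FPKM, the 3 whose line-centred levels were most like POLR2A over the 26 libraries were NCAPG, a condensin subunit (r = 0.76), the Golgi protein gene GOLGA5 (0.76) and R3HDM1 (0.72). For POLR2B they were ACLY, the ATP citrate lyase of fatty acid synthesis (0.71), the kinesin gene KIF2A (0.67) and the aminopeptidase gene LAP3 (0.66). These correlations were picked as the highest among 4636 genes and were not tested. None of the 6 lies on the chromosome of its member except LAP3, which is on chromosome 4 with POLR2B.

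Genes that work with the enzyme were grouped into 10 lists, written with earlier results of these data known. Averaged over lines, 0 genes of any list passed the limma threshold between large and small clones. The general transcription factors, which load the enzyme onto promoters, had a positive difference for 16 of 17 tested genes, with a median of 0.10. The kinases and phosphatases of the C-terminal tail of RPB1 leaned the other way, with a negative difference for 11 of 15 genes and a median of -0.10. These lists overlap, and the highest difference in both was the same, at 0.33. All tested genes had a median of -0.00096, and 50.3% of them were negative.

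The pausing and elongation factors were negative for 19 of 27 genes (median -0.04), TFIID subunits for 9 of 14 (-0.03), Mediator subunits for 14 of 29 (0.0046), the assembly and import factors of RNA polymerase II for 8 of 18 (0.02) and the cleavage and termination factors for 9 of 16 (-0.01). The 6 subunits particular to RNA polymerase I were all positive, with a median of 0.08, the 11 of RNA polymerase III positive for 8 with a median of 0.06, and of the 2 shared by both of these enzymes 1 was positive.

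Within HCT116, 2 of 151 listed genes tested passed between sizes, against 0.445% of all tested genes. POLR1E, a subunit of RNA polymerase I, rose in large clones by 0.97 ± 0.17 (SE, adjusted p = 0.0172), and GTF2F2, the small subunit of the initiation factor TFIIF, rose by 0.75 ± 0.16 (SE, adjusted p = 0.0366). Of 32 alternatives, 29 kept POLR1E past the threshold and 18 kept GTF2F2. Leaving out small clone 1 of HCT116 gave adjusted p = 0.0996 for POLR1E and 0.182 for GTF2F2, and leaving out large clone 1 gave 0.0519 for both. GTF2F2 also lost the threshold without large clone 3, without small clone 2 and without each of 6 clones outside this pair of classes (2 of HCT116 and 4 of DLD1). The medians there were 0.68 for RNA polymerase I, 0.39 for RNA polymerase III and 0.18 for the general transcription factors, beside 0.21 for the 10 members and -0.0016 over all genes. In DLD1 the same 3 lists had medians of -0.0027, -0.04 and 0.04, and in CAL51 -0.14, -0.17 and 0.0061, with 0 genes past the threshold in either line.

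Leaving aside the comparison of lines, 2 other comparisons had 2 of the 151 listed genes each past the threshold. In HCT116 large clones against 2N clones, CSTF2, a factor of 3′ end cleavage, rose by 0.77 ± 0.16 (SE, adjusted p = 0.0344) and CCNC, the cyclin of the Mediator kinase, rose by 0.58 ± 0.13 (SE, adjusted p = 0.0384), among 0.917% of all genes past the threshold. For the difference of the size effect, CAL51 minus HCT116, URI1, a chaperone factor of polymerase assembly, passed at -0.92 ± 0.22 (SE, adjusted p = 0.0434) and SUPT16H, a subunit of the histone chaperone FACT, at -1.13 ± 0.28 (SE, adjusted p = 0.0487), where 1.54% of all genes passed. Of 31 alternatives, CSTF2 passed in 19, CCNC in 16, URI1 in 12 and SUPT16H in 11, with no change of sign, and in each of them several single clones ended the call when left out.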

How the data were processed

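The authors deposited FPKM values per gene for 26 libraries. Per the labels, mRNA was purified with poly-T beads and read from dUTP libraries. Per the submitters' processing notes the tools were fastp, HISAT2 version 2.0.5, featureCounts version 1.5.0-p3 and DESeq2, with GRCh38. Reads recovered from the FPKM steps came out whole (tolerance 0.01) in 100% of genes.

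The log2(FPKM + 1) values of 14835 genes were fitted in limma version 3.58.1 (R version 4.3.3) with 12 group means, an intensity trend and moderated variances (14 residual and 3.84 prior degrees of freedom). Tests were two-sided, with Benjamini-Hochberg adjustment over all 14835 genes of each contrast and a threshold of 0.05. Line means had equal weight, and p values rest on the variation among clones. Levels, correlations and promoter motifs were computed in Python version 3.11.15 with pandas version 2.3.3. The members, lists and tests were chosen with earlier results of these data known. All members were named, with up to 3 listed genes per list and contrast past the threshold (those of the line comparison are left out here), the 3 genes most like POLR2A and POLR2B, and overlapping genes. The procedure was tested on simulated data whose changes were larger than the members' size differences. That test thus does not show how well differences as small as theirs are found. Alternatives covered the pseudocount, filters, rescaling, chromosome medians, voom, a replicate block, single lines and left-out clones or lines.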

Additional observations from a re-analysis of the deposited data

Results flagged for a closer look

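In the DLD1 large class, the only group of 4 to 10 libraries, each of the 10 members and the POLR2A to POLR2B ratio was checked for 1 clone far from the others, 11 checks in all, of which chance marks about 1 in 20. POLR2B had 15.2 FPKM in large clone 4, against 19.4, 19.5 and 19.7 FPKM in the other DLD1 large clones, and lay below all DLD1 small clones. The ratio of POLR2A to POLR2B was 1.55 in large clone 3, against 2.20, 2.27 and 2.22 in the other large clones, with POLR2A at 30.6 FPKM there.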

How the results depend on the processing

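POLR2A kept a negative difference between large and small clones under all 34 alternatives for the mean of lines (-0.49 to -0.40, adjusted p 0.0458 to 0.432). The count of members past the threshold, 0, ranged from 0 to 1 when clones were left out, both over lines and in HCT116, the 1 being POLR2A without HCT116 large clone 2. Between CAL51 and colorectal 2N clones the count, 2, ranged from 2 to 4 over left-out clones (4 without DLD1 2N clone 2), was 4 after upper-quartile rescaling, 4 relative to chromosome medians and 6 with parental libraries counted as 2N, a choice made after seeing the data. POLR2B in DLD1 became -0.0038 relative to the chromosome median; the cause was not tested. POLR2A in DLD1 small against 2N clones passed in 23 of 31 alternatives (0.73 to 1.07, adjusted p 0.0120 to 0.224), losing the threshold also with a filter on the mean of each line (adjusted p = 0.0720), relative to the chromosome median (0.0650) and with the replicate block (0.0649). Of 1040 alternative values for the other 8 members, 67 changed sign, with a largest original size of 0.21. The labels do not say whether clone numbers pair large and small clones. Deviations from the group mean of same-numbered large and small clones correlated at 0.03 to 0.16 in HCT116 and -0.06 to 0.09 in DLD1. Clones of different number were not compared, so these values cannot settle a pairing. With the replicate block POLR2A differed by -0.45 over lines (adjusted p = 0.152), and the genes past the threshold numbered 108 over lines and 5 for 4N against 2N clones, where the fit without it gave 59 and 1. Voom gave 6 genes over lines, 39 in HCT116, 96 in CAL51, 0 for 4N against 2N clones and 24 for DLD1 small against 2N clones, where limma on FPKM gave 59, 66, 226, 1 and 50. For the difference of the size effect, voom gave 7 genes for HCT116 minus DLD1, 68 for CAL51 minus HCT116 and 19 for CAL51 minus DLD1, where limma on FPKM gave 23, 228 and 99, and for HCT116 large against 2N clones 28, where limma on FPKM gave 136. POLR1E and GTF2F2 with HCT116 fitted alone had adjusted p values of 0.357 and 0.358.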
